A study of Mus musculus with 24 samples.

Results

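The genes described here handle fatty acids inside the cell, from uptake and activation to transport into mitochondria, β-oxidation, peroxisomal oxidation and storage. They were chosen by symbol, as a list of 43 mouse genes. The rule did not use their values, but earlier results of these data were known. Of the 43, 40 were among the 12010 genes of the expression table. Cd36, Lpl and Fabp3 were not in it and are not analysed here. The study asked how the related transcription factors MITF, TFE3 and TFEB differ in what they do in melanoma cells. It used B16-F10 cells, a mouse melanoma line that grows in culture, and all lines carried a luciferase reporter and were kept in DMEM with 10% serum. Messenger RNA was sequenced from its 3′ end with the QuantSeq method, so that the reads of a gene do not grow with its length.

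Each of the 8 lines gave 3 libraries. The parental line had all 3 factors intact. The MITF KO came from an earlier study and carries a frameshift in Mitf, and it may still make a small amount of truncated MITF. CRISPR-Cas9 was then used in the parental line to make TFE3 KO, TFEB KO and TFEB/TFE3 DKO cells, and in the MITF KO to give the MITF/TFE3 DKO, the MITF/TFEB DKO and the TKO, which lacks the 3 factors. The KO lines were isolated as clones, so a difference between lines can come from the clone as well as from the lost factor, and these cannot be told apart. The labels do not say whether the libraries of a line came from separate cultures, and p-values therefore measure the spread between libraries only.

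Long-chain fatty acids enter the cell with help from surface transporters, are carried by fatty acid binding proteins and are activated to acyl-CoA by synthetases. The carnitine shuttle moves the acyl group into mitochondria, where a cycle of dehydrogenation, hydration, a second dehydrogenation and thiolysis shortens the chain, while electrons pass through electron transfer flavoprotein to the respiratory chain. Peroxisomes shorten very long and branched chains, PPAR receptors switch on many of these genes when they bind fatty acids, and fatty acids not burned are stored as triglyceride in lipid droplets. MITF, TFE3 and TFEB bind as dimers to E-box DNA with the core CACGTG or CATGTG.

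These cores were searched on both strands in the window from 250 bases before to 50 bases after the canonical start site of each gene, on the mm39 genome (GRCm39). CACGTG was found in 1 of the 40 member promoters (2.5%), that of Etfa, against 10.3% of the 11084 promoters searched. CATGTG was found in 2 of 40 (5.0%), those of Acsl6 and Pnpla2, against 8.66% of all. The longer forms TCACGTGA (1.79% of all promoters), TCATGTGA (0.893%), GTCACGTG (4.01%), TCACGTG (5.96%) and TCATGTG (2.35%), each of which contains a core, were in none of the 40. A match is a description of the letters and not a binding site. The member sequences with a core are shown on the strand of the gene with the core in capitals, because the RNA of these genes is described below. Etfa is 100 bases at chr9:55419793-55419892 on the minus strand, just upstream of the start site, with the core 13 bases before it. The Acsl6 cores begin 166 and 56 bases upstream of its start site, within the pieces at chr11:54205584-54205613 and chr11:54205694-54205723 on the plus strand. The Pnpla2 core begins 243 bases upstream of its start site, within the piece at chr7:141034813-141034842 on the plus strand. The last line, with no capitals, is the stretch between the start sites of Hadha and Hadhb at chr5:30360188-30360235, read on the plus strand, which no annotated exon covers and which is shown because these 2 genes start 65 bases apart in opposite directions.
Etfa: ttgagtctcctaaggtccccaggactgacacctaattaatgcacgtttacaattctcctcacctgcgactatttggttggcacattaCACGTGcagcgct
Acsl6 distal: gactaaagacaaCATGTGgtcagggaaggc
Acsl6 proximal: ccagtaccgcccCATGTGcagatgaagggg
Pnpla2: acttctcCATGTGctcggctctccctgagt
Hadha-Hadhb: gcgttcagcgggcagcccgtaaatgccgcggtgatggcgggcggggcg

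Reads on genes numbered 18300902 to 26667877 a library. All 7 melanocytic markers were in the table, with a summed mean of 16200 to 39100 CPM in each line, against 10.7 to 40.8 CPM for the 2 of 6 fibroblast markers present, at most 27.5 CPM for the 1 of 6 endothelial or epithelial markers present and none of the 6 leukocyte markers in the table. Tfe3 was at 8.01 to 21.7 CPM in the libraries of lines targeted for it and at 31.1 to 62.5 CPM in the others, and Tfeb was at 2.06 to 5.27 against 7.87 to 22.7 CPM. Mitf RNA was at 326 to 1470 CPM in the lines with the frameshift and at 646 to 903 CPM in the others, so 3′ end counts of Mitf do not check that label.

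Levels are given as CPM, reads relative to library depth, scaled between libraries with the TMM method of edgeR. Differences are log2 fold changes of CPM + 1, which understate changes of genes with few reads, and were tested with limma over all 12010 genes. A gene was called changed at a Benjamini-Hochberg adjusted p under 0.05. Comparisons with the parental line share its 3 libraries.

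In the MITF KO, 11 of the 40 members rose (27.5%) and 0 fell, where 20.1% of all genes rose and 17.8% fell. In the TFE3 KO, 1 rose and 3 fell, against 4.5% and 7.78% of all genes. This count of 4 was 1 without parental replicate 1 or 2 or TFE3 KO replicate 2, 2 without TFE3 KO replicate 3, and 1 when only these lines were fitted. In the TFEB KO, limma called 0 members, against 2.25% of all genes higher and 2.59% lower. By limma 4 members had an unadjusted p under 0.05, and edgeR also gave 0 adjusted and 4 unadjusted. The share of all genes at that unadjusted threshold was not counted. The TFEB/TFE3 DKO had 2 higher and 1 lower, against 4.72% and 4.09% of all genes, and this count of 3 was 6 without TFEB/TFE3 DKO replicate 2.

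In the double and triple KOs without MITF, members changed in both directions. The MITF/TFE3 DKO had 8 higher and 6 lower, against 20.2% and 21.7% of all genes. The MITF/TFEB DKO had 11 higher and 6 lower, against 28.8% and 27.3%. The TKO had 14 higher and 8 lower, against 28.3% and 27.9%. The median log2 fold change of the members was 0.15 in the MITF KO (0.00 over all genes) and 0.07 in the TKO (0.01 over all genes). In all, 31 members changed in at least 1 KO, where 81.8% of all genes did so, and 9 changed in none, namely Slc27a4, Acsl5, Acad9, Acad10, Hadhb, Acaa2, Eci1, Etfdh and Ppard.

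Changes of at least 2-fold with an unadjusted p under 0.05 were also counted. With limma's fold on the log2(CPM + 1) scale, which understates changes at low levels, 2 members passed in the MITF KO (6.28% of all genes), 2 with TFE3 lost (1.71%), 0 with TFEB lost (0.783%) and 0 with TFEB and TFE3 lost (0.958%). The MITF/TFE3 DKO had 2 (5.87%), MITF/TFEB DKO 2 (13.7%) and TKO 3 (14.7%). With edgeR's fold and p on the recovered reads, an alternative added after the values were seen, the counts were 2 (10.6% of all genes), 2 (4.59%), 0 (2.57%), 0 (2.99%), 2 (10.9%), 6 (18.7%) and 5 (20.3%) in the same order. The 6 in the MITF/TFEB DKO were Slc27a3, Fabp7, Cpt1c, Ppara, Pnpla2 and Dgat2, and the 5 in the TKO were Fabp7, Acsl6, Cpt1c, Ppara and Dgat2.

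**Figure D1:**
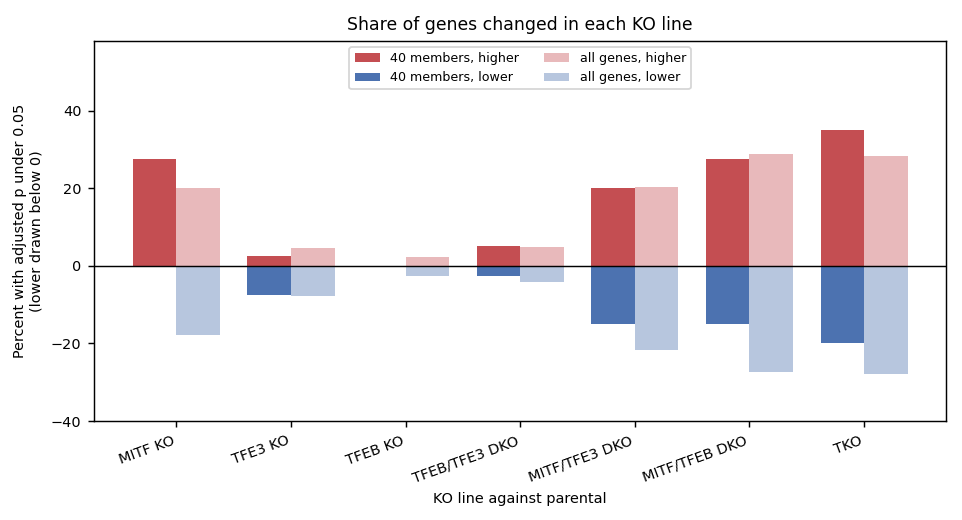
Bars show the percent of the 40 members (dark) and of all 12010 genes (light) with an adjusted p under 0.05 in each KO line against parental, with higher genes above 0 and lower genes below 0. In the MITF KO 27.5% of members were higher and none lower, while 20.1% of all genes were higher and 17.8% lower.

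**Figure D2:**
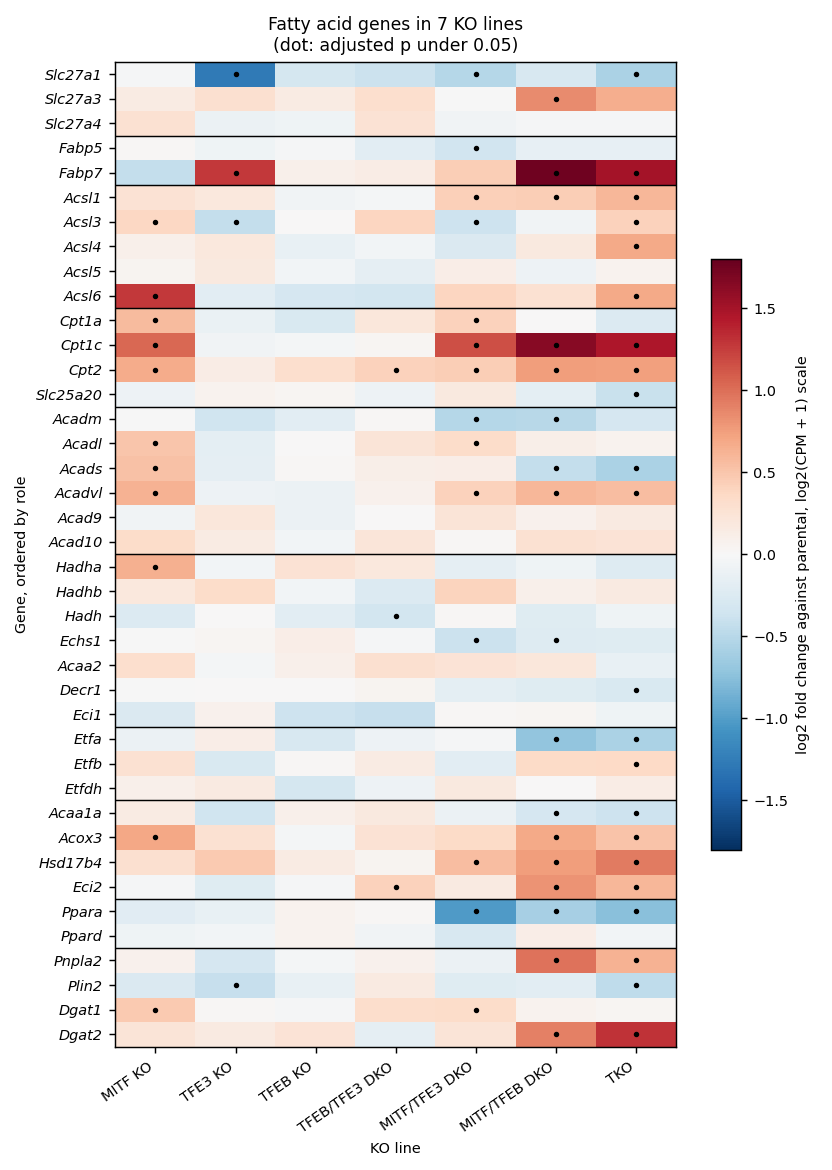
Colour gives the log2 fold change of CPM + 1 for each member (row, ordered by role with lines between roles) in each KO line against parental (column), and dots mark an adjusted p under 0.05. Cpt1c is red with a dot in all 4 lines without MITF, and Slc27a1 is darkest blue in the TFE3 KO.

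Among the uptake genes, the change of largest size was the fall of Slc27a1 in the TFE3 KO. Slc27a1 encodes FATP1, a transporter that also has acyl-CoA synthetase activity (chr8:72021095-72041866). Its 3 parental libraries were at 9.45, 6.55 and 7.73 CPM and the 3 TFE3 KO libraries at 2.99, 2.55 and 2.47 CPM, with no overlap. The log2 fold change was −1.27 ± 0.19 (SE, n = 3 against 3), with a limma adjusted p of 5.6e-05, and −1.57 by edgeR.

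The fall was not of the same size when TFEB was absent as well. In the TFEB/TFE3 DKO, Slc27a1 was at 4.35, 5.995 and 7.24 CPM, which overlapped the TFEB KO (7.56, 5.21 and 5.78 CPM). Loss of TFE3 gave −0.08 in the absence of TFEB (95% confidence interval −0.46 to 0.31), and the difference between this and the loss of TFE3 with TFEB present was 1.19 ± 0.26, with a limma adjusted p of 0.0042 for the interaction. Every TFEB/TFE3 DKO library lay above every TFE3 KO library, by 0.88 on the log2 scale (limma adjusted p = 0.0014). This interaction was chosen for testing after its values were seen.

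MITF loss also went with a smaller fall. In the MITF KO Slc27a1 was at 6.69, 8.31 and 8.23 CPM and in the MITF/TFE3 DKO at 3.82, 6.74 and 5.30 CPM, so the groups overlapped. Loss of TFE3 without MITF gave −0.50 (limma adjusted p = 0.039), and the interaction with MITF was 0.77 ± 0.26 (limma adjusted p = 0.041). The call of −0.50 was lost by edgeR (−0.55) and without MITF KO replicate 2 or 3, or MITF/TFE3 DKO replicate 1 or 3, at values from −0.32 to −0.51. Against the parental line Slc27a1 was lower with MITF and TFE3 lost (−0.52) and in TKO cells (−0.57; 4.44, 6.13 and 4.39 CPM). The first of these calls was lost without parental replicate 1 (−0.40) or 3 (−0.53) or MITF/TFE3 DKO replicate 1 (−0.34) or 3 (−0.53), and the second without parental replicate 1 (−0.45) or TKO replicate 3 (−0.50).

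The other transporters moved less. Slc27a4 (FATP4), with the highest mean level of the 3 transporters in the table, passed the test in no KO. Its parental libraries were at 38.9, 39.1 and 29.7 CPM, the MITF KO at 38.2, 46.8 and 45.7, and the TKO at 36.1, 33.7 and 35.4. Its log2 fold changes ran between −0.11 and 0.28 over the 7 KOs.

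Slc27a3 was higher in the MITF/TFEB DKO alone of the 7 KOs by this test, by 0.85 ± 0.28. Its libraries there were at 6.63, 4.83 and 2.79 CPM against 1.64, 3.32 and 1.53 in the parental line, which overlap. The call was lost without parental replicate 1 (0.74) or 3 (0.71) without MITF/TFEB DKO replicate 1 (0.62) or with quantile normalization (0.64).

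The fatty acid binding proteins in the table were Fabp5 and Fabp7. Fabp5, the epidermal form, was at 460, 481 and 457 CPM in the parental line and changed only in the MITF/TFE3 DKO, where it fell by 0.34 on the log2 scale to 416, 330 and 363 CPM. That call was lost without MITF/TFE3 DKO replicate 2 (−0.26) or with quantile normalization (−0.23).

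Fabp7, the brain form, which is known as a marker of glial and neural crest-derived cells, was low but rose in 3 KOs. The parental libraries were at 1.94, 0.86 and 1.84 CPM. The MITF/TFEB DKO was at 4.59, 7.89 and 10.8 CPM and the TKO at 4.81, 5.23 and 8.56 CPM, all above the parental libraries. The log2 fold changes were 1.75 ± 0.39 and 1.49 ± 0.39 (limma adjusted p = 5.2e-04 and 0.0022), and 2.32 and 1.99 by edgeR.

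In the TFE3 KO Fabp7 spread widely, at 2.29, 9.31 and 5.55 CPM, with a log2 fold change of 1.28 ± 0.39 (limma adjusted p = 0.032). The call was lost without parental replicate 1, 2 or 3 (1.40, 1.07 and 1.37) and without TFE3 KO replicate 2 or 3 (0.90 and 1.22). With TFE3 present, the rise with loss of TFEB was seen without MITF and not with it. In the MITF KO Fabp7 was at 1.083, 0.68 and 0.82 CPM, so the MITF/TFEB DKO was 2.18 higher, while the TFEB KO (0.85, 3.29 and 1.39 CPM) differed from parental by 0.10 (95% confidence interval −0.70 to 0.89). The interaction was 2.08 ± 0.55, with a limma adjusted p of 0.0046. With TFE3 lost, loss of TFEB gave −1.14 for Fabp7 in cells with MITF (limma adjusted p = 0.03), with overlapping libraries. In cells without MITF and TFE3 it gave a rise, a call lost without MITF/TFE3 DKO replicate 2 or 3 or TKO replicate 3 (0.80 to 1.01).

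**Figure D3:**
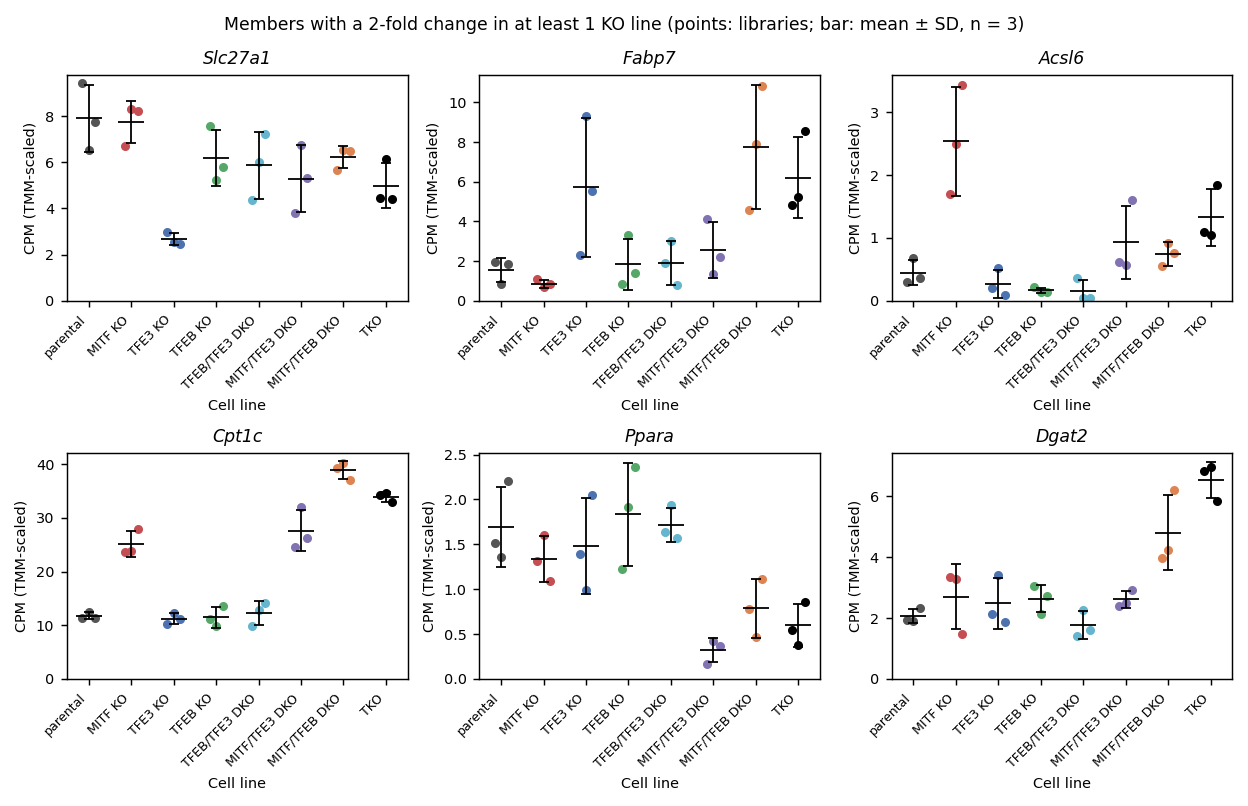
Points are the CPM of each library, and the bars give the mean ± SD of the 3 libraries of each line, for the 6 members with a change of at least 2-fold on the log2(CPM + 1) scale, an adjusted p under 0.05 and no overlap with parental in at least 1 KO. Slc27a1 is lowest in the TFE3 KO, Cpt1c is at 23.6 CPM or above in every line without MITF and at 14.1 CPM or below in the others, and Ppara is at 1.12 CPM or below in the double and triple KOs without MITF.

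The acyl-CoA synthetases activate fatty acids for every later step. All 5 long-chain forms were in the table, and 2 rose in the MITF KO, where 20.1% of all genes rose, and 4 in the TKO, where 28.3% did. Acsl3, which acts at the endoplasmic reticulum and on lipid droplets, had the highest mean level of the 5. Its parental libraries were at 172, 151 and 138 CPM, the MITF KO was at 189, 204 and 204 CPM, and the TFE3 KO was at 104, 104 and 135 CPM.

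In cells without MITF, loss of TFE3 lowered Acsl3 where TFEB was present and raised it where TFEB was absent. With TFEB present, loss of TFE3 lowered it by 0.43 in the parental line (limma adjusted p = 0.023) and by 0.74 in the MITF KO (adjusted p = 6.1e-05), where the MITF/TFE3 DKO was at 108, 115 and 134 CPM. With TFEB absent, loss of TFE3 gave 0.37 with MITF (limma adjusted p = 0.11; 188, 126 and 153 CPM for TFEB KO, 202, 189 and 208 for TFEB/TFE3 DKO) and a rise of 0.48 without MITF (limma adjusted p = 0.0087). The last of these compared 151, 135 and 153 CPM in the MITF/TFEB DKO with 203, 209 and 201 CPM in the TKO. The interaction of TFE3 loss with TFEB, in cells with MITF, was 0.80 ± 0.17 (limma adjusted p = 0.0032) and was added after the values were seen.

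Against the parental line, Acsl3 was 0.38 higher in the MITF KO, 0.37 lower in the MITF/TFE3 DKO and 0.42 higher in the TKO. Several of these small changes depended on single libraries. The MITF KO call was lost without parental replicate 3 (0.30) or MITF KO replicate 2 or 3 (both 0.36), the TFE3 KO call without parental replicate 1 or 2 or TFE3 KO replicate 1 or 2 (−0.34 to −0.44), the MITF/TFE3 DKO call without parental replicate 1 (−0.28) or MITF/TFE3 DKO replicate 1 or 2 (−0.30 and −0.35), and the call of the TKO against the MITF/TFEB DKO without MITF/TFEB DKO replicate 2 (0.42). Quantile normalization also ended the MITF/TFE3 DKO call (−0.28).

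Acsl6, a synthetase best known from brain and red blood cells, was low in the parental line and higher in the MITF KO. It was at 0.30, 0.68 and 0.36 CPM in parental and at 1.70, 2.49 and 3.43 CPM in the MITF KO, without overlap. The log2 fold change was 1.27 ± 0.21 (limma adjusted p = 4.3e-05) and 2.49 by edgeR, on 1 to 63 reads a library. It was lower than in the MITF KO in the lines that had lost a second factor as well. The MITF/TFE3 DKO was at 0.62, 0.57 and 1.60 CPM (−0.89 against the MITF KO) and the MITF/TFEB DKO at 0.55, 0.92 and 0.76 CPM (−0.998). Acsl6 was named for its high MITF KO libraries, which also enter these comparisons, so the falls are a description. TKO libraries were at 1.09, 1.05 and 1.85 CPM, 0.68 above parental, a call lost without TKO replicate 3 (0.52). The CATGTG letters of the Acsl6 promoter are shown above.

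Acsl1, the main synthetase of liver, fat and heart, rose in the 3 double and triple KOs without MITF, by 0.43, 0.44 and 0.60, which was 0.11, 0.07 and 0.27 above the median of its 100 nearest measured genes. Acsl4, which prefers arachidonic acid, rose in the TKO only among the 7 KOs, by 0.68, from 22.5 to 24.6 CPM in the parental libraries to 33.9 to 43.1 CPM. Acsl5 differed from parental by −0.16 to 0.17 in the 7 KOs and passed the test in none. The median change of its 100 nearest measured genes on chromosome 19 was −0.76 for the MITF/TFEB DKO and −0.80 for TKO cells, so Acsl5 lay above its neighbours in both. Its last exon overlaps Zdhhc6 on the other strand.

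Of the 4 members listed under the carnitine shuttle, 3 rose in the MITF KO, where 20.1% of all genes rose. Genes were placed in this list by symbol, and transport into mitochondria was not measured. Cpt1c, the brain-enriched form of carnitine palmitoyltransferase 1, was the most marked (chr7:44607765-44624306). Parental libraries were at 11.4, 12.6 and 11.3 CPM, the MITF KO at 23.6, 23.8 and 28.0 CPM and the MITF/TFE3 DKO at 24.7, 32.0 and 26.2 CPM. The MITF/TFEB DKO was at 39.3, 40.3 and 37.1 CPM and the TKO at 34.2, 34.7 and 32.9 CPM.

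Every library without MITF was above every library with it, where the highest was 14.1 CPM in the TFEB/TFE3 DKO. The log2 fold changes against parental were 1.03, 1.16, 1.64 and 1.45 (SE 0.13; limma adjusted p from 3.2e-10 to 1.5e-06), and in the TFE3 KO, TFEB KO and TFEB/TFE3 DKO they were between −0.07 and 0.04. Loss of TFEB on top of MITF raised Cpt1c further by 0.62 (limma adjusted p = 4.8e-04), whereas loss of TFEB alone gave −0.04, and the interaction was 0.66 ± 0.19 (limma adjusted p = 0.0081).

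Cpt2, the inner-membrane enzyme that releases acyl-CoA in the matrix, was also above parental in every line without MITF, with a smaller range. It was at 20.8, 22.2 and 19.7 CPM in parental, 30.8, 34.6 and 36.3 in the MITF KO and 27.7, 30.6 and 27.8 in the MITF/TFE3 DKO. It was at 35.7, 38.2 and 33.9 CPM in the MITF/TFEB DKO and 33.9, 35.3 and 37.3 CPM in the TKO, all above parental. Its rises were 0.67, 0.44, 0.76 and 0.74, and it also rose in the TFEB/TFE3 DKO by 0.42 (28.0, 27.9 and 28.8 CPM), which made it the member called in the most KOs, 5 of 7.

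Cpt1a, the liver form and the usual rate-limiting step of entry, rose in the MITF KO from 17.4, 16.6 and 14.7 CPM to 23.7, 23.4 and 26.9 CPM (0.58) and stayed higher in the MITF/TFE3 DKO (0.41). With TFEB also lost it was back at 14.7, 16.1 and 17.8 CPM in the MITF/TFEB DKO and at 12.5, 14.5 and 13.7 CPM in the TKO, and of these the first overlapped the parental libraries and the second lay below them without passing the test (−0.24). These were −0.58 against the MITF KO (limma adjusted p = 2.8e-04) and −0.65 against the MITF/TFE3 DKO (adjusted p = 6.7e-05). The neighbouring genes of Cpt1a had medians of −0.37 and −0.36 against parental in these 2 lines, where Cpt1a itself was at −0.00 and −0.24. Slc25a20, the carnitine carrier of the inner membrane, fell in the TKO by 0.41, a call lost without parental replicate 2 (−0.39) or 3 (−0.36) or TKO replicate 3 (−0.38).

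Acyl-CoA dehydrogenases carry out the first step of each β-oxidation cycle, each for its own range of chain lengths. The very-long-, long- and short-chain forms Acadvl, Acadl and Acads rose in the MITF KO, while the medium-chain form Acadm was at −0.01 with overlapping libraries. Acadvl was at 64.2, 58.8 and 52.7 CPM in parental and at 91.3, 87.3 and 93.7 CPM in the MITF KO (0.63 ± 0.08; limma adjusted p = 2.4e-06). It stayed higher in the MITF/TFE3 DKO (0.41), the MITF/TFEB DKO (0.60) and the TKO (0.56). Its last exon overlaps Dvl2 on the other strand.

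Acads, with the highest mean of the 6 dehydrogenases, changed sign with TFEB. It was at 141, 164 and 124 CPM in parental, at 191, 240 and 188 CPM in the MITF KO and at 141, 182 and 144 CPM in the MITF/TFE3 DKO. It was at 117, 111 and 90.0 CPM in the MITF/TFEB DKO and at 97.9, 92.6 and 95.2 CPM in the TKO, all below parental. The log2 fold changes against parental were 0.53 for the MITF KO, −0.43 for MITF/TFEB DKO and −0.57 for TKO.

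Without MITF, loss of TFEB lowered Acads by 0.95 (limma adjusted p = 3.9e-05), and with MITF it gave 0.02 (95% confidence interval −0.32 to 0.35), an interaction of −0.97 ± 0.23 (limma adjusted p = 0.0020). The MITF KO call was lost without parental replicate 3 (0.43) or MITF KO replicate 2 (0.41), and the MITF/TFEB DKO call without parental replicate 1 (−0.43) or 2 (−0.33) or MITF/TFEB DKO replicate 3 (−0.32). The medians of the 100 genes nearest to Acads were −0.39 and −0.34 for MITF/TFEB DKO and TKO, and less those medians Acads was at −0.04 and −0.24.

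Acadl rose in the MITF KO (82.2, 83.2 and 92.7 to 126, 118 and 124 CPM; 0.51) and the MITF/TFE3 DKO (0.33), and in the MITF/TFEB DKO and TKO it was at 84.2 to 97.9 CPM, overlapping parental. Acadm fell in both DKOs without MITF, the MITF/TFE3 DKO first, by 0.51 and 0.50, at limma adjusted p of 0.049 and 0.040. The first call was lost without any 1 of the 6 libraries compared (−0.35 to −0.59), by edgeR, median-of-ratios size factors or quantile normalization (each −0.51) and under the replicate block (−0.51), and the second without any parental library (−0.46 to −0.54) or without MITF/TFEB DKO replicate 2 (−0.33). Acad9 and Acad10 changed in no KO.

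**Figure D4:**
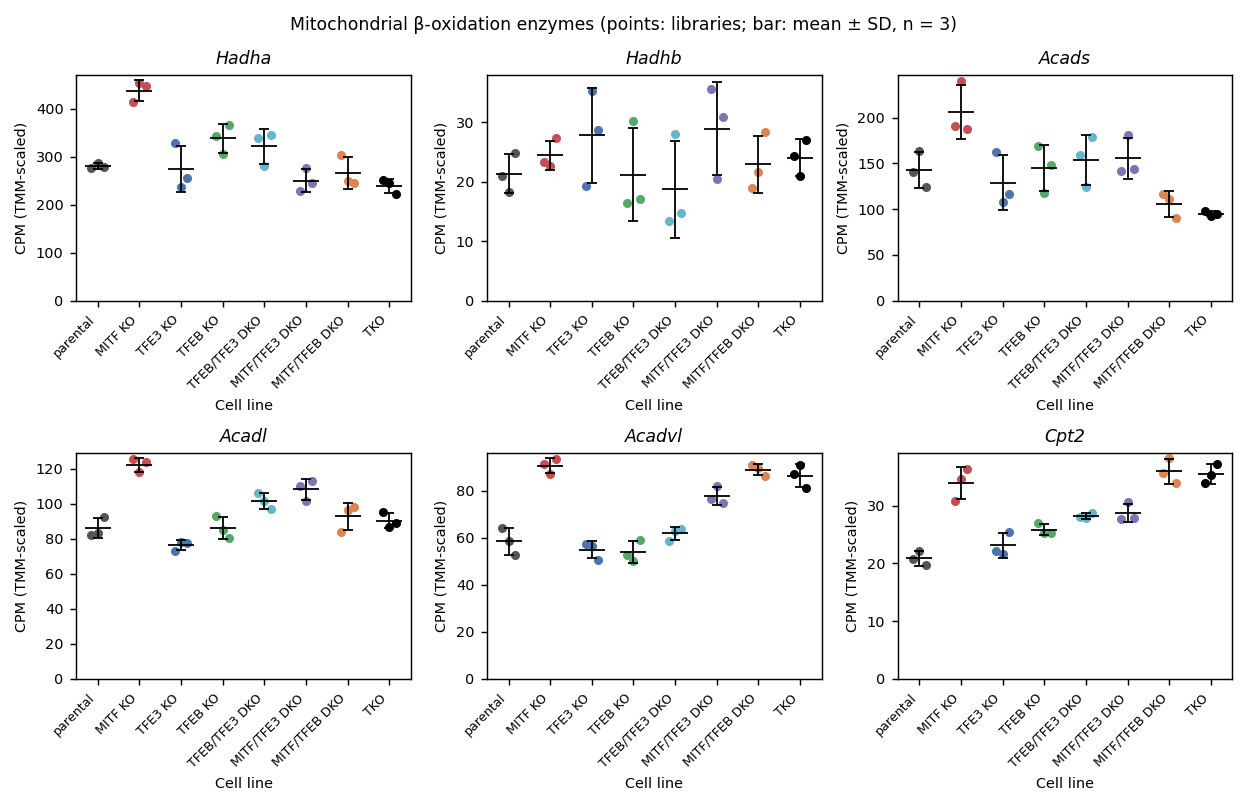
Points are the CPM of each library, and the bars give the mean ± SD of the 3 libraries of each line, for 6 mitochondrial enzymes. Hadha, Acads and Acadl are highest in the MITF KO and lower in the MITF/TFEB DKO and TKO, Acadvl and Cpt2 are above parental in every line without MITF, and the libraries of Hadhb overlap between lines.

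Of the 7 genes of the later steps, Hadha was the 1 that rose in a KO. Hadha and Hadhb encode the alpha and beta subunits of the mitochondrial trifunctional protein, which carries out the last 3 reactions on long chains, and they share the short stretch between start sites printed above. Hadha was at 276, 287 and 279 CPM in parental and at 413, 453 and 447 CPM in the MITF KO, without overlap. The rise was 0.64 ± 0.11 (limma adjusted p = 8.7e-05).

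With either or both other factors also lost, Hadha did not pass the test against parental (−0.17, −0.08 and −0.23). The MITF/TFE3 DKO was at 229, 276 and 246 CPM, the MITF/TFEB DKO at 304, 249 and 245 CPM and the TKO at 251, 246 and 223 CPM. Loss of TFE3 without MITF was −0.81 (limma adjusted p = 7.8e-06) and loss of TFEB without MITF −0.72 (adjusted p = 1.2e-05), while with MITF they gave −0.05 and 0.27, which did not pass the test. The interactions were −0.76 ± 0.16 and −0.99 ± 0.16 (limma adjusted p = 0.0012 and 3.4e-05). Both were the most negative values among the 40 members for that interaction. Its last exon overlaps Garem2 on the other strand.

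Hadhb did not pass the test in any KO. It was at 20.9, 18.4 and 24.9 CPM in parental, at 23.4, 22.7 and 27.3 CPM in the MITF KO and at 18.9 to 35.6 CPM in the double and triple KOs without MITF. Its change in the MITF KO was 0.19 with a 95% confidence interval of −0.35 to 0.73, which includes the value of Hadha. That comparison therefore does not show that the 2 subunits differ. For TFEB loss with and without MITF, the Hadhb interaction was −0.05 (95% confidence interval −0.81 to 0.71), which leaves out the −0.99 of Hadha. For TFE3 loss with and without MITF it was −0.13 (−0.89 to 0.63), which includes the −0.76 of Hadha. A difference between the 2 subunits was not tested.

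Of the other enzymes of the later steps, Echs1, the enoyl-CoA hydratase, fell in the MITF/TFE3 DKO by 0.39 (57.1, 50.3 and 63.96 to 46.8, 38.4 and 44.4 CPM) and with MITF and TFEB lost by 0.23, the latter lost without parental replicate 1 or 3 or MITF/TFEB DKO replicate 2 or 3 (−0.15 to −0.23). Decr1, needed for unsaturated chains, fell in the TKO by 0.27, lost without parental replicate 2 (−0.22) or TKO replicate 3 (−0.24). Hadh fell in the TFEB/TFE3 DKO by 0.33, lost without any parental library (−0.32 to −0.35) or without TFEB/TFE3 DKO replicate 1 (−0.24) or 3 (−0.33), and with quantile normalization (−0.31). Acaa2 and Eci1 changed in no KO.

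Electron transfer flavoprotein takes electrons from the acyl-CoA dehydrogenases, and its 2 subunits moved in opposite directions in the TKO. Etfa, whose promoter has the CACGTG letters printed above, was at 24.4, 21.1 and 29.4 CPM in parental and fell to 13.1, 15.2 and 15.9 CPM in the MITF/TFEB DKO (−0.72 ± 0.20; limma adjusted p = 0.0045) and to 15.2, 17.9 and 15.9 CPM in the TKO (−0.57). The second call was lost without parental replicate 3 (−0.45) or TKO replicate 1 (−0.52) or 3 (−0.56).

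Etfb, with the highest mean of the 3, was at 359, 421 and 329 CPM in parental and at 481, 467 and 470 CPM in the TKO, a rise of 0.36 ± 0.15 (limma adjusted p = 0.045). The rise was lost without parental replicate 1 or 3 or any TKO library (0.28 to 0.37) and with edgeR or median-of-ratios size factors (both 0.35). Of the 50-base pieces in the last 500 bases of Etfb, 48.8% also occur in Etfbl, so its counts could be split between these genes. Etfdh changed in no KO.

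The 4 peroxisomal enzymes all changed in both lines without MITF and TFEB, the MITF/TFEB DKO and TKO, with 3 higher and 1 lower in each, where 56.1% and 56.2% of all genes changed. Eci2, an enoyl-CoA isomerase with the highest mean of this group, was at 56.9, 54.9 and 57.2 CPM in parental, 96.6, 103 and 99.1 CPM in the MITF/TFEB DKO and 81.3, 88.0 and 87.5 CPM in the TKO. The rises were 0.81 ± 0.09 and 0.59 ± 0.09 (limma adjusted p = 6.5e-08 and 5.5e-06). In the MITF KO (54.0, 60.0 and 52.1 CPM) and the TFEB KO (64.3, 56.6 and 47.3 CPM) it overlapped parental, and the interaction of TFEB loss with MITF was 0.85 ± 0.13 (limma adjusted p = 1.3e-05).

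Eci2 also rose in the TFEB/TFE3 DKO, by 0.42 (72.4, 77.2 and 77.6 CPM). Acox3, an acyl-CoA oxidase for branched chains, rose in the MITF KO (0.70), MITF/TFEB DKO (0.69) and TKO (0.51), the last lost without parental replicate 2 (0.42). Hsd17b4, the peroxisomal bifunctional enzyme, rose in the TKO (0.93), MITF/TFEB DKO (0.75) and MITF/TFE3 DKO (0.56), the last lost without parental replicate 1 (0.43) or 2 (0.54) or MITF/TFE3 DKO replicate 1 (0.57) or 3 (0.49). Acaa1a, the peroxisomal thiolase, fell in MITF/TFEB DKO (−0.31) and TKO cells (−0.38). The first call was lost without parental replicate 1 or 2 or any MITF/TFEB DKO library (−0.23 to −0.35), with a pseudocount of 5 (−0.28) or with median-of-ratios size factors (−0.30), and the second without parental replicate 2 (−0.30) or TKO replicate 2 (−0.29). In its last 500 bases 42.1% of 50-base pieces also occur in Acaa1b.

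PPAR receptors drive many of these genes in liver, heart and muscle. Ppara was low in every line, with 4 to 51 reads a library, and lower still in the double and triple KOs without MITF. Parental was at 1.51, 1.36 and 2.20 CPM, the MITF/TFE3 DKO at 0.17, 0.42 and 0.37 CPM and the MITF/TFEB DKO at 0.78, 0.46 and 1.12 CPM. The TKO was at 0.55, 0.38 and 0.86 CPM.

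All 9 of those libraries lay below the 3 parental ones. The log2 fold changes were −1.02, −0.60 and −0.75 (limma adjusted p = 1.6e-04, 0.010 and 0.0017), and −2.41, −1.10 and −1.49 by edgeR. The MITF/TFEB DKO call was lost without parental replicate 3 (−0.46) or MITF/TFEB DKO replicate 2 (−0.46). The MITF KO overlapped parental, at 1.32, 1.61 and 1.09 CPM, and loss of TFE3 on top of it gave −0.83 (limma adjusted p = 0.0017). The last exon of Ppara overlaps Cdpf1 on the other strand.

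Ppard, which had the higher mean of the 2 receptors, changed in no KO by limma. It was at 18.6, 19.6 and 19.3 CPM in parental, 19.3, 17.7 and 17.3 in the MITF KO and 20.4, 18.8 and 16.7 in the TKO, and its log2 fold changes ran from −0.29 in the MITF/TFE3 DKO to 0.13 in the MITF/TFEB DKO. With quantile normalization the MITF/TFE3 DKO passed the test (−0.36; limma adjusted p = 0.039).

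For storage and release, Pnpla2 and Dgat2 were higher in the lines without MITF and TFEB. Pnpla2 encodes adipose triglyceride lipase, which releases the first fatty acid from triglyceride. It was at 51.2, 51.3 and 50.1 CPM in parental, at 54.0, 52.1 and 54.7 CPM in the MITF KO and at 49.9, 43.7 and 55.4 CPM in the TFEB KO. It was at 111, 105 and 89.4 CPM in the MITF/TFEB DKO and at 81.0, 80.9 and 76.1 CPM in the TKO.

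Both lines lay above every library of the other 6, where the highest was 58.9 CPM in the TFEB/TFE3 DKO. The rises were 0.98 ± 0.11 and 0.63 ± 0.11 (limma adjusted p = 1.0e-07 and 4.4e-05), and the interaction of TFEB loss with MITF was 0.95 ± 0.16 (limma adjusted p = 5.2e-05). The TKO was lower than the MITF/TFEB DKO by 0.35 (limma adjusted p = 0.039), a call lost without MITF/TFEB DKO replicate 1 or 2 or any TKO library (−0.29 to −0.37).

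Dgat2, which makes triglyceride, was at 1.94, 1.91 and 2.34 CPM in parental, 3.96, 4.24 and 6.21 in the MITF/TFEB DKO and 6.81, 6.94 and 5.85 in the TKO. The rises were 0.91 ± 0.21 and 1.30 ± 0.21 (limma adjusted p = 6.8e-04 and 1.1e-05) and 1.22 and 1.66 by edgeR. Both lines were above all libraries of the MITF KO (3.34, 3.29 and 1.47 CPM), and the MITF/TFEB DKO was 0.68 higher than the MITF KO, a call lost without MITF KO replicate 3 (0.41) or MITF/TFEB DKO replicate 3 (0.51). Of the 50-base pieces in the last 500 bases of Dgat2, 14.6% also occur among 307 other genes, so reads from this end could be split.

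Dgat1, the other enzyme of that last step, rose instead in the MITF KO (59.7, 53.0 and 53.4 to 80.1, 72.9 and 78.9 CPM; 0.48) and the MITF/TFE3 DKO (0.34), and overlapped parental in both lines without MITF and TFEB. The MITF/TFE3 DKO call was lost without parental replicate 2 (0.31) or MITF/TFE3 DKO replicate 2 (0.28). Its last exon overlaps Hsf1 on the other strand.

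Plin2, a coat protein of lipid droplets with the highest mean of the 4, was at 190, 194 and 175 CPM in parental. It fell in the TFE3 KO to 156, 129 and 136 CPM (−0.41) and in the TKO to 142, 130 and 133 CPM (−0.46; limma adjusted p = 0.0019). In the TFEB/TFE3 DKO it was at 219, 173 and 239 CPM, and the interaction of TFE3 loss with TFEB, added after the values were seen, was 0.71 ± 0.17 (limma adjusted p = 0.0063). The TFE3 KO call was lost without parental replicate 1 or 2 or TFE3 KO replicate 2 or 3 (−0.35 to −0.40). In its last 500 bases 18.6% of 50-base pieces also occur in Gm12551.

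The 11 members that rose in the MITF KO were compared with the lines that had lost a second factor. They were Acsl3, Acsl6, Cpt1a, Cpt1c, Cpt2, Acadl, Acads, Acadvl, Hadha, Acox3 and Dgat1. The rule that named them used the MITF KO libraries, which also enter the comparisons with that line, so their counts there are a description. Against the MITF KO, 5 of the 11 were lower and 0 higher in the MITF/TFE3 DKO, and 7 were lower and 1, Cpt1c, higher in the MITF/TFEB DKO. Genes picked as high in the MITF KO tend to be lower than it elsewhere. How many of all genes that rose in the MITF KO were lower in these lines was not counted. Over all 40 members, the MITF/TFE3 DKO had 10 lower and 1 higher than the MITF KO (19.7% and 18.1% of all genes), and the MITF/TFEB DKO had 10 lower and 6 higher (23.9% and 25.1% of all genes).

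Against parental, 6 of the 11 were still higher with TFE3 also lost, 4 with TFEB also lost and 6 in TKO cells, and 1 was lower in each. The 2409 genes of the table that rose in the MITF KO were still higher in 55.6%, 61.4% and 60.9% of cases, and since all were picked as higher than the same parental libraries these shares are a description. Of the members, Cpt1c, Cpt2 and Acadvl were higher in all 4 lines without MITF. How many of all genes were higher in all 4 was not counted. The count of 11 members changed between MITF KO and MITF/TFE3 DKO was 7 without MITF KO replicate 2, 6 without MITF/TFE3 DKO replicate 1 and 7 without MITF/TFE3 DKO replicate 3.

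The TKO was then compared with each double KO that lacks MITF. Against the MITF/TFEB DKO, from which it differs by TFE3, 2 members were higher (Acsl3 and Acsl4) and 1 lower (Pnpla2), against 5.41% and 6.99% of all genes. This count of 3 was 1 without MITF/TFEB DKO replicate 1, TKO replicate 2 or TKO replicate 3, and 0 without MITF/TFEB DKO replicate 2. Against the MITF/TFE3 DKO, from which it differs by TFEB, 8 were higher and 7 lower, against 26.6% and 24.2% of all genes. By fold of at least 2 and unadjusted p, both from limma, the counts were 0 for the MITF/TFE3 DKO against MITF KO (5.06% of all genes), 1 for MITF/TFEB DKO against MITF KO (10.9%), 0 for TKO against MITF/TFEB DKO (2.3%) and 2 for TKO against MITF/TFE3 DKO (11.4%). By edgeR they were 3 (Fabp7, Acsl6 and Ppara; 8.96% of all genes), 2 (Fabp7 and Acsl6; 15.6%), 0 (4.21%) and 2 (Fabp7 and Dgat2; 16.1%). In the comparison of the TKO with the MITF/TFE3 DKO, Acsl4 was 0.94 higher, Dgat2 1.06 higher, Acads 0.69 lower and Cpt1a 0.65 lower on the log2 scale.

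Whether loss of a factor moved a member differently in another background was tested as an interaction. For TFE3 loss with and without MITF, 2 members had a higher and 4 a lower difference, against 10.2% and 10.0% of all genes. For TFEB loss with and without MITF, 5 were higher and 7 lower, against 17.7% and 17.4%. For TFE3 loss with and without TFEB, the test added after values were seen, 6 were higher and 0 lower, against 7.26% and 5.1%. Here edgeR called 6 higher and 0 lower. By limma 12 members had an unadjusted p under 0.05, and the share of all genes at that threshold was not counted. Differences of at least 1 on the log2 scale at a limma adjusted p under 0.05 numbered 0, 1 (Fabp7) and 1 (Slc27a1) in these tests, against 6.09%, 12.1% and 3.25% of all genes.

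**Figure D5:**
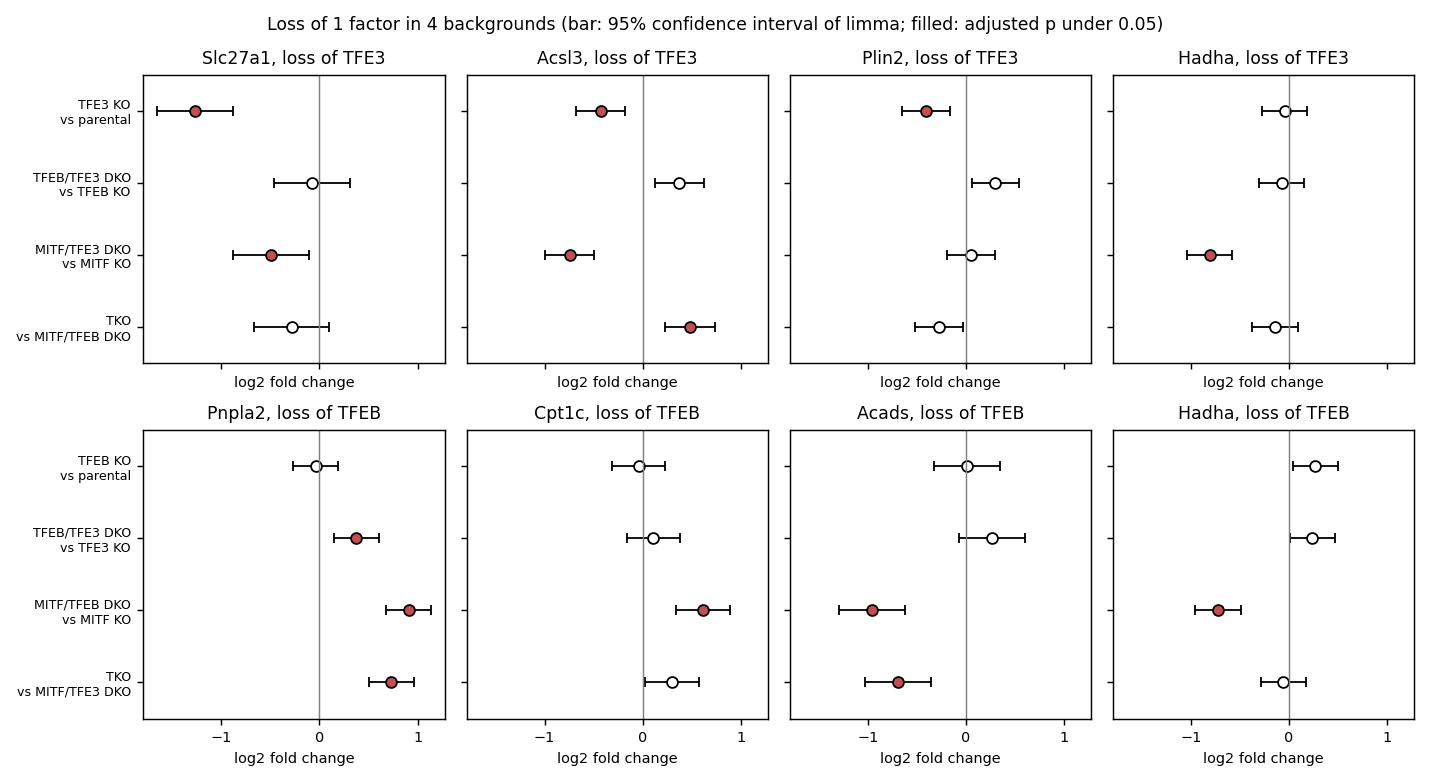
Points give the log2 fold change of CPM + 1 on loss of TFE3 (upper row) or TFEB (lower row) in the 4 backgrounds, bars the 95% confidence interval of limma, and filled points an adjusted p under 0.05. Loss of TFE3 gave −1.27 for Slc27a1 in the parental background and −0.08 without TFEB, and loss of TFEB raised Pnpla2 by 0.91 and 0.73 in the backgrounds without MITF and by 0.38 without TFE3.

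Other genes of fatty acid metabolism give the setting of these members. Lists of related genes held 104 genes, of which 77 were in the table. Of these, 26 rose and 8 fell in the MITF KO. For TFE3 KO cells 2 rose and 5 fell, in the TFEB KO 4 rose and 3 fell and in the TFEB/TFE3 DKO 7 rose and 5 fell. In the MITF/TFE3 DKO 27 rose and 16 fell, in the MITF/TFEB DKO 23 rose and 27 fell and in the TKO 21 rose and 28 fell. The background shares are those given for the members. The genes named below were picked from each list for the size of their called changes, so they are not typical of it.

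Among other genes of transport, binding and activation, 9 of 18 listed were in the table. Dbi, the acyl-CoA binding protein, rose in the MITF KO from 2983, 3337 and 2896 CPM to 8709, 8608 and 8270 CPM (1.48). Acsbg1, a synthetase of brain and testis, fell there from 41.6, 35.7 and 32.7 CPM to 5.04, 4.26 and 4.96 CPM (−2.71), and Slc27a6 fell most in the MITF/TFE3 DKO (−1.93).

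Among other oxidation genes, 31 of 37 were in the table, and 13 rose and 2 fell in the MITF KO. Bdh1, which interconverts the ketone bodies, fell in the TFE3 KO from 60.5, 64.6 and 64.6 CPM to 22.1, 22.3 and 19.7 CPM (−1.52), and its TFEB/TFE3 DKO libraries lay above the parental ones, at 72.7, 77.1 and 70.4 CPM, without passing the test (0.21). Oxct1, which lets cells use ketone bodies, fell in the MITF/TFEB DKO (−1.30), and Decr2 rose in the TKO (1.32).

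Among PPAR and PGC-1 regulators and targets, 15 of 21 were in the table. Ppargc1a, the coactivator PGC-1α, rose in the MITF KO (1.22) and fell in the TKO (−1.58). Prkaa1, a catalytic subunit of AMP-activated kinase, fell in the MITF KO (−1.73) and the TKO (−1.98).

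Among genes of lipid droplets and lipolysis, 22 of 28 were in the table. Mgll, which releases the last fatty acid from glycerol, was at 64.7, 64.2 and 74.5 CPM in parental, at 2.47, 3.78 and 3.82 CPM in the MITF/TFEB DKO and at 2.04, 1.43 and 1.03 CPM in the TKO, where it fell by 4.80 on the log2 scale. In the TFEB/TFE3 DKO it rose to 185, 184 and 165 CPM (1.38). Pnpla2, which acts at the first step of the same breakdown, was higher in the 2 lines in which Mgll was lowest. Lpin1 rose in the MITF/TFE3 DKO (1.40), and Gpam, which starts triglyceride synthesis, fell in the TKO (−1.27).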

How the data were processed

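The authors trimmed reads with Trim Galore 0.6.5 and cutadapt 2.10, checked them with FastQC 0.11.9, aligned them with STAR 2.7.8a to mm39 and normalized gene counts with edgeR. They deposited TMM-scaled CPM, a normalized signal, for 12010 genes. The counting tool, annotation and gene filter are not given in the sources used here. The steps between values gave whole reads (99.99% whole within 0.05), for use by edgeR 4.0.16 as an alternative.

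The plan had foreseen plain CPM, and the same test was kept. Lines were compared with limma 3.58.1 (variance trend) on log2(CPM + 1), 24 libraries in 1 fit (16 residual degrees of freedom). The Benjamini-Hochberg adjustment was over all genes. The tests recovered most changed genes of simulated data, in which the changes were larger than most described here. Those changed genes had a mean CPM of at least 5, so smaller changes and lower genes were not covered. R 4.3.3 and Python 3.11.15 were used. Positions, start sites and 3′ ends are from GENCODE on GRCm39. Members, gene lists and tests were chosen with earlier results of these data known. Values per library are given for members with a 2-fold called change without overlap in a KO, for Slc27a1, and for the highest member of each role; the other members with values were singled out after their values were seen. Replicates differed by more than sampling noise, and same-numbered replicates did not deviate together (mean correlation 0.0222).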

Additional observations from a re-analysis of the deposited data

Results flagged for a closer look

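The results below are those in which a test of the difference itself, an interaction with a limma adjusted p under 0.05, found that loss of a factor moved a member differently in different backgrounds. Each value is the log2 change on loss of the factor without the second factor, minus the change with it. Of all genes, 10.2% had a higher and 10.0% a lower interaction of TFE3 loss with MITF, and 17.7% and 17.4% of TFEB loss with MITF.

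For loss of TFE3 with and without MITF, the difference was higher for Slc27a1 (0.77) and Eci2 (0.41) and lower for Cpt2 (−0.37), Hadha (−0.76), Echs1 (−0.43) and Acox3 (−0.63). Those of Slc27a1, Cpt2 and Acox3 were near the threshold, at limma adjusted p of 0.041, 0.042 and 0.047. The interactions of single members were not followed with libraries left out.

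For loss of TFEB with and without MITF, it was higher for Fabp7 (2.08), Cpt1c (0.66), Eci1 (0.66), Eci2 (0.85) and Pnpla2 (0.95), and lower for Acsl3 (−0.45), Acadl (−0.40), Acads (−0.97), Hadha (−0.99), Echs1 (−0.35), Acaa1a (−0.55) and Dgat1 (−0.40). Acsl3, Dgat1 and Echs1 were near the threshold, at limma adjusted p of 0.046, 0.043 and, after rounding, 0.05.

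For loss of TFE3 with and without TFEB in cells with MITF, a test added after the values were seen, it was higher for Slc27a1 (1.19), Acsl3 (0.80), Cpt1a (0.60), Acadl (0.40), Eci2 (0.66) and Plin2 (0.71), where 7.26% of all genes had a higher and 5.1% a lower difference. No member had a called lower one by limma, and edgeR called 6 higher and 0 lower. By limma 12 members had an unadjusted p under 0.05 in either direction, and the share of all genes at that threshold was not counted.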

How the results depend on the processing

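No member's change that passed the test, in the first fit or a refit, reversed under the alternatives. By fold of at least 2 and unadjusted p, both from limma on log2(CPM + 1), counts of changed members against parental were 2 (MITF KO), 2 (TFE3 KO), 0 (TFEB/TFE3 DKO), 2 (MITF/TFEB DKO), 2 (MITF/TFE3 DKO) and 3 (TKO). The nested comparisons gave 0 (MITF/TFE3 DKO with MITF KO), 1 (MITF/TFEB DKO with MITF KO), 0 (TKO with MITF/TFEB DKO) and 2 (TKO with MITF/TFE3 DKO). With fold and p from edgeR, added after the values were seen, the counts in the same order were 2, 2, 0, 6, 2 and 5 against parental and 3, 2, 0 and 2 in the nested comparisons. Fitted on only the lines compared, the TFE3 KO had 1 changed member. With genes of a mean CPM of at least 5, the TFEB KO had 1 (Cpt2, 0.30), and 0 members had an interaction of TFEB loss with MITF of at least 1 on the log2 scale, against 1 (Fabp7). Fabp7, with a mean of 3.55 CPM, was left out of that fit by the filter. For TFE3 loss with MITF the count of such interactions was 0, but 1 with a pseudocount of 0.25 and 2 by edgeR. For TFE3 loss with TFEB it was 1 but 0 with a pseudocount of 5. The causes of the other differences were not tested.

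Leaving out 1 library at a time gave 9 to 12 changed members in the MITF KO, 1 to 6 in the TFE3 KO, 0 to 0 in the TFEB KO, 2 to 6 in the TFEB/TFE3 DKO, 10 to 12 in the MITF/TFE3 DKO, 12 to 15 in the MITF/TFEB DKO and 17 to 21 in the TKO, and 6 to 14, 13 to 18, 0 to 3 and 12 to 15 in the 4 nested comparisons in the order above. Interactions of at least 1 on the log2 scale numbered 0 to 0, 1 to 3 and 1 to 2, the second being 2 or 3 without parental replicate 2, MITF KO replicate 1 or 3, TFEB KO replicate 2 or 3 or any MITF/TFEB DKO library, and the third 2 without TFE3 KO replicate 1. The TFE3 KO count was 1 without parental replicate 1 or 2 or TFE3 KO replicate 2 and 2 without TFE3 KO replicate 3, and the TFEB/TFE3 DKO count was 6 without TFEB/TFE3 DKO replicate 2. Fitted on only the lines compared, Fabp7, Acsl3 and Plin2 in the TFE3 KO, Hadh in the TFEB/TFE3 DKO, Slc27a1 in the MITF/TFE3 DKO and Echs1 in the MITF/TFEB DKO lost their calls against parental.

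Same-numbered replicates shared only a number: 11 of 24 libraries correlated best with their own number. With the replicate number as a block, the counts against parental were 11, 4, 0, 4, 13, 18 and 22 in the order above. Of 440 member results, edgeR ended 3 calls and added 4, quantile normalization ended 8 and added 15, and median-of-ratios size factors ended 3 and added 2. Subtracting the median of 100 neighbouring genes moved 111 of the 440 by more than the spread between replicates, 45 of them among the 115 that had passed the test. Of the 115, 0 changed sign and 34 changed by more than 1.5 times, while 62 of the 325 others changed sign. Against parental, the 34 included Acsl3 in the MITF KO (0.38 to 0.20), TFE3 KO (−0.43 to −0.22) and TKO (0.42 to 0.11), Hadh in the TFEB/TFE3 DKO (−0.33 to −0.22), and Slc27a1 (−0.52 to −0.80), Acadl (0.33 to 0.16) and Echs1 (−0.39 to −0.12) in the MITF/TFE3 DKO. They also included Echs1 in the MITF/TFEB DKO (−0.23 to −0.40) and, in the TKO, Slc25a20 (−0.41 to −0.21), Decr1 (−0.27 to −0.16), Etfa (−0.57 to −0.36), Etfb (0.36 to 0.21), Acaa1a (−0.38 to −0.13) and Plin2 (−0.46 to −0.27). Between the TKO and MITF/TFE3 DKO, Dgat2 went from 1.06 to 0.62, Pnpla2 from 0.73 to 0.25, Acads from −0.69 to −0.33 and Cpt1a from −0.65 to −0.27. Between the MITF/TFE3 DKO and MITF KO, Hadha went from −0.81 to −0.50. Between the MITF/TFEB DKO and MITF KO, Cpt1c went from 0.62 to 0.36 and Acads from −0.95 to −0.58. Members with few reads, such as Acsl6 and Ppara, had the least precise values.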
